A study of Mus musculus with 143 samples.

Results

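The comparison sets 8 single oocytes in which both Dis3 and Exosc10 had been deleted (double conditional knockout, dcKO) against 8 in which only Dis3 had been deleted (Dis3 cKO), and asks what the loss of EXOSC10 adds once DIS3 is absent. The 16 libraries were chosen by their titles from 143 mouse samples in the series, and 8 control and 8 Exosc10 cKO oocytes of the same assay and age were used beside them. All were single oocytes of postnatal day 20 (p20), sequenced from total RNA after removal of ribosomal RNA. The labels give a genotype for each group and say that the mutant mice were made with CRISPR/Cas9, but name no strain, no Cre driver, no treatment and no animal for any oocyte. Titles carry a first number, 1 or 2, with 4 oocytes each per group (here title tag). The labels do not say what the tag stands for, so p-values measure the spread between oocytes, which may come from few animals. The study's title ties lowered female fertility to pervasive transcription in oocytes without exosome ribonucleases.

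The nuclear RNA exosome is a barrel of catalytically inactive subunits to which the ribonucleases DIS3 and EXOSC10 attach. It trims ribosomal, small nuclear and small nucleolar RNA precursors and destroys promoter upstream transcripts, enhancer RNAs and prematurely ended transcripts in the nucleus, with the helicase MTR4 (gene Mtrex) and adaptor complexes bringing the substrates. Growing oocytes build up the store of maternal RNA that later supports meiosis and the early embryo.

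Gene counts ranged from 8492102 to 14246463 per dcKO library, from 9566019 to 15335017 per Dis3 cKO library, and from 16043788 to 23801344 over the other 16 libraries, so the groups compared had like depth. Oocyte markers were present in all groups: the 12 defining genes summed to 16001 to 19527 counts per 1000000 gene counts (CPM) in dcKO and to 11071 to 15084 CPM in Dis3 cKO oocytes. The Dis3 cKO library 1_4 stood apart, with 547 gene counts per count of the added synthetic ERCC RNAs against 898 in the nearest Dis3 cKO library. Some results are therefore also given without it, but the ERCC-scaled calls were not repeated without it. Without it, 7978 genes passed the main test in place of 8182.

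The deleted genes were examined first. Exosc10 ranged from 104 to 140 CPM in Dis3 cKO oocytes (median 124) and from 3.14 to 14.8 CPM in dcKO oocytes (median 4.92), with controls at 118 ± 11.3 CPM and Exosc10 cKO oocytes at 3.14 ± 3.37 CPM (SD, n = 8 each). The 2 groups did not overlap. The log2 fold change, dcKO minus Dis3 cKO, was -4.06 ± 0.39 (SE; adjusted p = 2.7e-10; edgeR quasi-likelihood F test with Benjamini-Hochberg adjustment, used for every gene below). The remaining Exosc10 level was higher in dcKO oocytes of title tag 2 (mean 10.5 CPM) than of tag 1 (4.25 CPM). Dis3 was low in both groups, at 1.31 to 4.12 CPM (median 1.69) in Dis3 cKO and 1.73 to 4.34 CPM (median 2.72) in dcKO, against 13.7 ± 4.88 CPM in controls, and these ranges overlapped (log2 fold change 0.49 ± 0.26, adjusted p = 0.11). The Dis3 difference was called with ERCC scaling (0.78, adjusted p = 0.0084) and without the Dis3 cKO library 1_4, which held the highest Dis3 level of its group (0.70, adjusted p = 0.019).

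**Figure D1:**
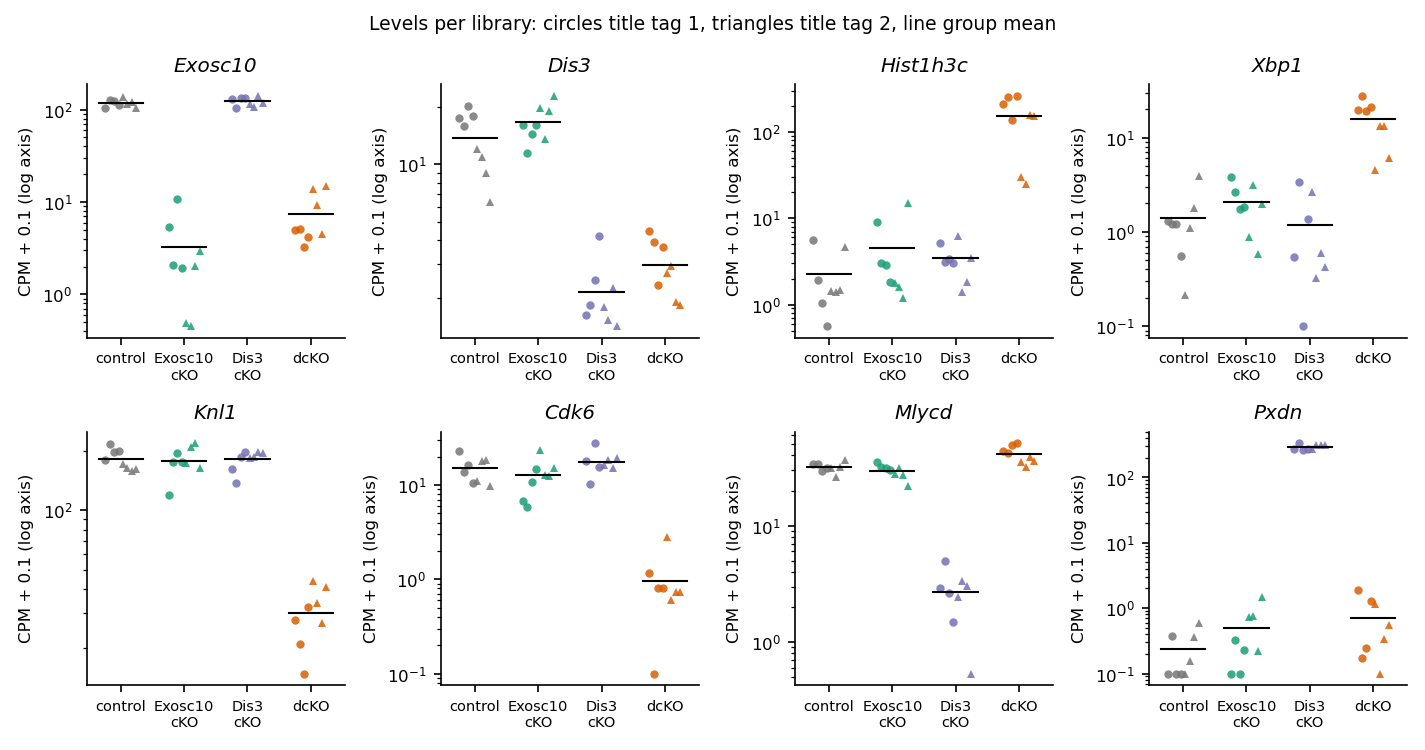
CPM plus 0.1 on a log axis in each of the 8 libraries of 4 groups, for 8 genes; circles are title tag 1, triangles title tag 2 and black lines group means. Exosc10 falls in both groups that lack it, Hist1h3c and Xbp1 are high and Knl1 and Cdk6 low in dcKO, while Mlycd and Pxdn stand apart in Dis3 cKO.

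Genes throughout the measured transcriptome differed between dcKO and Dis3 cKO oocytes. Of 15882 genes tested, 8182 passed an adjusted p of 0.05 (51.5%), with 4135 higher (26%) and 4047 lower (25.5%) in dcKO. Among called genes, 2254 were at least 1 log2 unit higher and 1604 at least 1 lower. CPM values of the 8 and 8 libraries did not overlap for 2300 genes (14.5%), 1142 of them higher and 1158 lower in dcKO. The balance between the directions depends on the scaling. With library sizes taken from ERCC counts, the median of all genes moved from 0.02 to 0.26, 4289 genes were called higher and only 1575 lower, so that 73.1% of calls were higher against 50.5% with the main scaling. Gene counts per ERCC count differed between the groups by 0.11 (log2), and by -0.02 without the Dis3 cKO library 1_4. How far the ERCC-scaled calls rest on that library was not tested. Changes below are relative to the bulk of genes, and list counts with ERCC scaling stand in parentheses after the main ones.

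Fewer genes were called for the same deletion where Dis3 was intact. Exosc10 cKO against control called 1183 of the 15882 genes (7.45%), 627 higher and 556 lower. The median absolute log2 change over all tested genes was 0.57 for dcKO against Dis3 cKO and 0.23 for Exosc10 cKO against control, pairs that share no library. Of the called genes, 765 were called in both comparisons, which is 64.7% of the Exosc10 cKO calls and 9.35% of the dcKO calls; 600 of them moved the same way and 165 the opposite way. Across genes the fold changes had a Pearson r of 0.33 and a Spearman rho of 0.32, a description in which genes are not independent replicates. The direct test of the difference (interaction) called 4984 genes (31.4%), and 4490 of these were also called in dcKO against Dis3 cKO, 4472 with the same sign in both tests. These counts depend on the processing: with ERCC scaling the interaction called 2155 genes, 75.1% of them more positive against 46.9% in the main fit, and Exosc10 cKO against control called 364. With counts summed per title tag the calls were 1307 and 174. Exosc10 cKO library 2_4 had 582 gene counts per ERCC count, against 1114 in the nearest library of its group. Its part in the ERCC-scaled counts was not tested.

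Called genes differ in which group stands apart. For 2485 of the genes called higher, the dcKO mean was above all 3 other group means while the Dis3 cKO mean lay within them, and for 275 only the Dis3 cKO mean was outermost. For the genes called lower the same counts were 2281 and 208. In 1339 called higher and 1520 called lower both groups were outermost, on opposite sides. At a margin of at least 2-fold from each other mean, dcKO stood apart in 1535 higher and 1073 lower genes, and Dis3 cKO in 261 and 114.

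Direction was graded by gene length. Protein-coding genes called higher had a median length on the genome, introns included, of 17719.5 bases, those not called 23531.5 bases and those called lower 47371 bases (RefSeq GRCm38.p6, all 12802 tested protein-coding genes with a length). In the shortest quintile (222 to 8808 bases), 37.1% of genes were higher and 12.5% lower. In the longest quintile (79684 to 2390387 bases), 13.6% were higher and 46.9% lower. With ERCC scaling these shares were 39.8% and 4.1% in the shortest quintile and 13.4% and 20.2% in the longest. The median log2 fold change fell step by step from 0.31 to -0.34 over the quintiles, and from 0.54 to -0.08 with ERCC scaling. In Exosc10 cKO against control the medians ran from 0.06 to -0.05. Expression also differs between the quintiles (median 9.74 CPM in the shortest and 32.3 CPM in the longest), and its part in the grading was not tested beyond one repeat: among genes of at least 10 CPM and without histone genes, 40.7% were higher and 17.2% lower in the shortest quintile and 13.1% higher and 55.9% lower in the longest (3.53% and 20.6% lower with ERCC scaling).

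**Figure D2:**
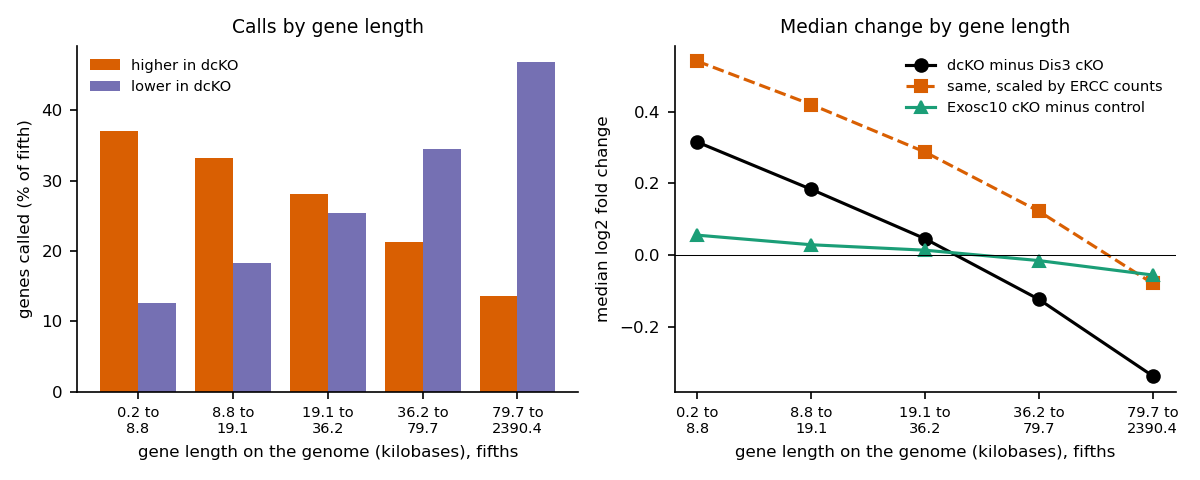
Left, percentage of protein-coding genes called higher or lower in dcKO against Dis3 cKO in each quintile of gene length on the genome (kilobases). Right, median log2 fold change per quintile for dcKO minus Dis3 cKO with the main and the ERCC scaling, and for Exosc10 cKO minus control; higher calls drop from 37.1% to 13.6% and lower calls rise from 12.5% to 46.9% with length.

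Most tested replication-dependent histone genes were higher. Genes of this class supply histone protein in S phase, and their mRNAs end in a stem-loop in place of a poly(A) tail. Of 68 matched genes, 41 had enough counts to be tested, 33 were higher in dcKO and 0 lower by edgeR at adjusted p 0.05 (34 and 0 with ERCC scaling, 33 and 0 with DESeq2 size factors), against 26% higher over all genes. Their median log2 fold change was 1.80, also with the gene that had no count in Dis3 cKO set at its bound, against 0.02 for all tested genes. Of the 8 that did not pass, Hist1h2bk (-0.04), Hist2h2bb (-0.21) and Hist2h3b (-0.70) had values below 0. In Exosc10 cKO against control the same list had 12 higher, 1 lower and a median of 0.73, in a comparison where 7.45% of all genes were called in either direction. The interaction was called positive for 15 and negative for 1, where it called 31.4% of all genes. Hist1h3c, which encodes a histone H3, ranged from 1.28 to 6.04 CPM in Dis3 cKO (median 3.14) and from 24.6 to 260 CPM in dcKO (median 153), with no overlap (log2 fold change 5.52 ± 0.57, adjusted p = 1.5e-09; interaction 4.49, adjusted p = 2.6e-05). For Hist1h4d, an H4 gene, the ranges were 0.109 to 1.45 CPM and 2.76 to 36 CPM (4.64 ± 0.56, adjusted p = 2.7e-08). Hist1h2bp, an H2B gene, had no count in any Dis3 cKO library and 485 counts over the 8 dcKO libraries, with counts in 6 of them and tag means of 6.74 and 2.27 CPM. That is at least 170-fold higher when the floor is 3 counts over the group.

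Among the more abundant histone genes, which were singled out after their values were seen, the linker histone H1 gene Hist1h1c rose from a median of 2.94 CPM (1.75 to 8.94) to 91.9 CPM (11.7 to 116) and Hist1h3a from 35.2 CPM (15.3 to 77.0) to 290 CPM (101 to 642). Hist1h1a, at 281 CPM in Dis3 cKO and 404 CPM in dcKO, did not pass the test (0.53 ± 0.24, adjusted p = 0.064). Summed over the list, histone genes took 0.0811 ± 0.0189% of gene counts in Dis3 cKO and 0.247 ± 0.1% in dcKO oocytes (SD, n = 8 each), higher than the Dis3 cKO mean in 8 of 8 dcKO libraries (2-sided exact permutation test p = 0.00047, adjusted over 9 RNA classes 0.0014). The ranges overlapped, at 0.0608 to 0.119% in Dis3 cKO and 0.11 to 0.394% in dcKO. Controls were at 0.0828 ± 0.0167% and Exosc10 cKO oocytes at 0.144 ± 0.0553%. The dcKO oocytes of title tag 1 summed to 2768 to 3938 CPM and those of tag 2 to 1102 to 2426 CPM. Dis3 cKO oocytes summed to 608 to 1192 CPM, a range that reached into that of tag 2. Taken singly, 12 of the 41 tested genes had CPM that did not overlap between the groups, against 14.5% of all genes. Fitted by tag, 32 members were higher in tag 1 and 17 in tag 2, 0 lower in either by edgeR. Histone genes have near-identical copies, so counts of single genes are uncertain where reads were shared.

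The promoters of 3 of these genes are shown because most tested members of the list were higher; they are the 150 bases before the RefSeq gene start, 5′ to 3′ in the direction of the gene (GRCm38.p6). Capitals mark CCAAT (a box bound by NF-Y), read on either strand so that ATTGG also counts, and TATAAA. They lie at chr13:23745522-23745671 on the minus strand (Hist1h3c), chr13:23581418-23581567 on the plus strand (Hist1h4d) and chr13:23738657-23738806 on the plus strand (Hist1h1c).
Hist1h3c: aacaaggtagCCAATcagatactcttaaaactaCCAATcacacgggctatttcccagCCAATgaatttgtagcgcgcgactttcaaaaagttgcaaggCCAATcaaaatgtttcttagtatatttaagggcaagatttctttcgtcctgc
Hist1h4d: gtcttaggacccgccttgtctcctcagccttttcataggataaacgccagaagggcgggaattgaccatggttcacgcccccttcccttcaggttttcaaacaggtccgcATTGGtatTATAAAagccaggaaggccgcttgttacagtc
Hist1h1c: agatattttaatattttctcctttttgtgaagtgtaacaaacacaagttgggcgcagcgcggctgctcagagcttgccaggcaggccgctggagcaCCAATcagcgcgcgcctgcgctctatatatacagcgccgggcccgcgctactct
Of the 37 tested histone genes with a promoter entry, 31 held CCAAT (83.8%) and 14 TATAAA (37.8%) in this window, against 25.3% and 8.08% of the 27025 RefSeq promoters searched alike. The 37 were not divided into genes called higher and not called, and the 27025 were not limited to tested genes. These are matches of letters and were not tested for binding.

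**Figure D3:**
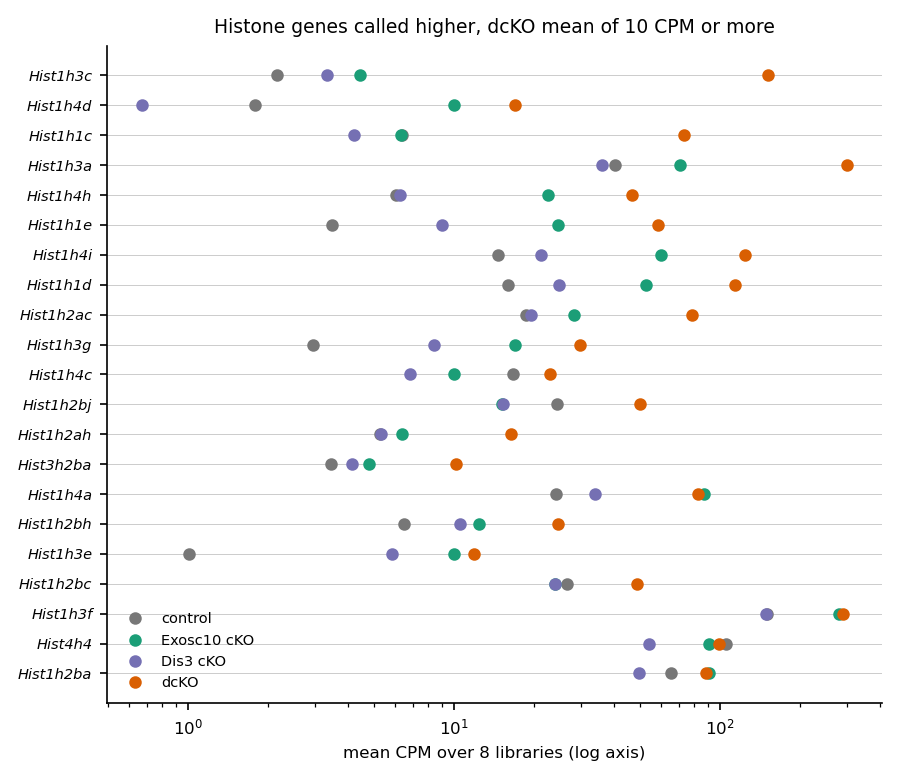
Mean CPM over 8 libraries on a log axis for the 21 replication-dependent histone genes called higher with a dcKO mean of at least 10 CPM, in control, Exosc10 cKO, Dis3 cKO and dcKO oocytes. The dcKO point lies to the right of the Dis3 cKO point in each row because only genes called higher are shown. The Exosc10 cKO point often lies between.

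Some genes of the endoplasmic reticulum stress response were higher. Of 20 tested members of the integrated stress and unfolded protein response list, 8 were higher (40%, against 26% over all genes) and 3 lower (15%, against 25.5%; 8 and 0 with ERCC scaling), with a median log2 fold change of 0.62. Xbp1, the transcription factor whose mRNA is spliced by IRE1, was at 0 to 3.3 CPM in Dis3 cKO (median 0.467) and at 4.39 to 27.4 CPM in dcKO (median 16.1), with no overlap (3.79 ± 0.59, adjusted p = 2.4e-06). Its change in Exosc10 cKO against control was 0.57 (adjusted p = 0.61) and the interaction was 3.22 (adjusted p = 0.0019). Dnajb9, a chaperone of the endoplasmic reticulum, had medians of 7.72 and 36.6 CPM and overlapping ranges (2.15 ± 0.30, adjusted p = 4e-07), and Herpud1, a factor in the removal of misfolded proteins, rose from 0.247 to 1.59 CPM (2.63 ± 0.94, adjusted p = 0.019). Further members, named after their values were seen, were the kinase PERK gene Eif2ak3 (1.91 ± 0.26), the chaperone BiP gene Hspa5 (1.17 ± 0.20) and Ddit3, which encodes CHOP (1.13 ± 0.22; 1.72 in title tag 1 and 0.40 in tag 2, where it was not called, adjusted p = 0.21). The IRE1 gene Ern1 went the other way, from a median of 2394 to 1441 CPM (-0.72 ± 0.10, adjusted p = 6e-07), a call that was lost with ERCC scaling (-0.48, adjusted p = 0.071). Ddit4, a stress-induced inhibitor of mTOR signalling, was also lower (-0.84 ± 0.15, adjusted p = 1.9e-05), and its call was lost with ERCC scaling as well (-0.59, adjusted p = 0.056).

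The core of the endoplasmic reticulum stress element, CCAAT and CCACG with 9 bases of any kind between them, was searched on both strands of the same 150-base window. It occurred in 3 of the 20 promoters of this list (15%) and in 24 of 27025 RefSeq promoters (0.0888%). CCAAT by itself occurred in 15 of the 20 (75%), against 25.3% of RefSeq promoters, so its high share was not particular to histone genes. Sequences of 2 of the 3 are given because they hold the element on opposite strands, with the element and every CCAAT in capitals. Hspa5 lies at chr2:34771940-34772089 and Creld2 at chr15:88819496-88819645, both on the plus strand (GRCm38.p6).
Hspa5: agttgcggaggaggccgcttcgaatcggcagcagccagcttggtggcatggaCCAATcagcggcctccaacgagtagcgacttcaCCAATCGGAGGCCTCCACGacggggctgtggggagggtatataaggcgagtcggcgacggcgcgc
Creld2: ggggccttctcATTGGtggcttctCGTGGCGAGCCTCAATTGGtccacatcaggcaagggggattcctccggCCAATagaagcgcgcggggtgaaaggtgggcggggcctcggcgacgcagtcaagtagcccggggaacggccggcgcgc
Hspa5 ranged from 61.5 to 195 CPM in Dis3 cKO and from 165 to 460 CPM in dcKO. Creld2, an endoplasmic reticulum protein gene, ranged from 86.4 to 101 CPM and from 52 to 94.6 CPM (-0.23 ± 0.10, adjusted p = 0.045), and its direction turned with ERCC scaling (0.02, adjusted p = 0.96). For Hsp90b1, the third holder, the change was 0.26 ± 0.13 (adjusted p = 0.092).

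Among the single genes with the largest rises, many were ones that Dis3 cKO oocytes had lost. By the rule used to name genes (called, at least 10 CPM in the higher group, no overlap between libraries, and a lowest library in the higher group of at least 0.25 times its highest), 1567 protein-coding genes qualified, 651 higher and 916 lower. At the top was Adra1b, the alpha-1B adrenergic receptor, with no count in any Dis3 cKO library, 7.5 to 28.5 CPM in dcKO (median 20.7) and a control mean of 10.2 CPM. The dcKO level was at least 654-fold higher with the floor at 3 counts over the group. Prr15l (8.67 ± 0.45), the hair-cell myosin gene Myo7a (6.64 ± 0.36), Prelid1 of mitochondrial lipid transfer (4.32 ± 0.25), the nucleosome-binding Hmgn3 (4.26 ± 0.43), Mlycd for malonyl-CoA decarboxylase (3.96 ± 0.22) and the lipoylation enzyme gene Lipt2 (3.89 ± 0.29) likewise had Dis3 cKO means of 0.0641 to 2.57 CPM, while their dcKO means of 18.0 to 40.8 CPM stood beside control means of 18.6 to 31.6 CPM. In each of these 6 genes the Dis3 cKO libraries were the low ones. Mlycd, for instance, ranged from 0.438 to 4.88 CPM in Dis3 cKO, 32 to 50.8 CPM in dcKO and 26.0 to 36.3 CPM in control.

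Of the other genes of that top set, 4 were low in controls too. Zfp800, a zinc finger gene, had 3.42 to 21.6 CPM in Dis3 cKO and 55.7 to 184 CPM in dcKO (3.32 ± 0.50, adjusted p = 1.4e-06), with a control mean of 4.07 CPM. Fam19a1, which encodes a secreted protein, was at or below 0.285 CPM in Dis3 cKO and at 8.04 to 18.5 CPM in dcKO (7.16 ± 0.88). Smim10l1 (3.31 ± 0.69) and Zfp697 (3.26 ± 0.53) had control means of 0.222 and 0.511 CPM and dcKO means of 10.4 and 12.2 CPM. Pnpla3, a lipase gene, differs from these: its means were 0.774 and 0.985 CPM in Exosc10 cKO and Dis3 cKO and 19.6 and 21.9 CPM in control and dcKO (4.44 ± 0.71). The control mean of Pnpla3 joins 38.1 CPM in title tag 1 and 1.21 CPM in tag 2, so that only tag 1 controls were high, while its dcKO means were 19.0 and 24.9 CPM.

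Genes with the largest falls were mostly ones that controls and both single knockouts express. Pxdn, an extracellular matrix peroxidase, is the exception: it was at 263 to 334 CPM in Dis3 cKO and at 1.8 CPM or less in the other 24 libraries (-8.93 ± 0.45, adjusted p = 5.8e-17). The cell adhesion gene Nrcam fell from 98.6 to 163 CPM (median 128) to 0.213 to 5.58 CPM (median 2.36; -5.91 ± 0.59). The amino acid transporter gene Slc6a15 was at 38.5 to 91.5 CPM in Dis3 cKO and 0 to 7.22 CPM in dcKO (-4.53 ± 0.42), with control and Exosc10 cKO means of 71.4 and 44.5 CPM. Cdk6, a G1 cyclin-dependent kinase, went from 10.3 to 27.7 CPM to 0 to 2.68 CPM (-4.33 ± 0.38), with the corresponding means at 15.1 and 12.6 CPM. The remaining genes of this set were Gcnt2 (a glycan-branching enzyme, -4.78), Entpd1 (the ectonucleotidase CD39, -4.62), Ppp1r9a (the actin-binding neurabin, -3.88), Nfib (a transcription factor, -3.67), Slc2a13 (an inositol transporter, -3.62), Fam189a1 (-3.55) and the pseudokinase gene Trib2 (-3.41), besides Exosc10 itself. Nrcam, Gcnt2, Entpd1, Nfib and Fam189a1 had higher means in Dis3 cKO (17.6 to 129 CPM) than in control (8.77 to 31.1 CPM).

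After Pxdn, the falls named for their small p-values were less steep than those above. Knl1, the kinetochore scaffold that recruits checkpoint proteins, was at 137 to 199 CPM in Dis3 cKO (median 187) and 14.8 to 43.9 CPM in dcKO (median 30.1), with control and Exosc10 cKO means of 181 and 179 CPM (-2.59 ± 0.15, adjusted p = 1.7e-15; interaction -2.57, adjusted p = 8.7e-12). The zinc finger gene Zfp616 fell from 243 to 388 CPM to 15.9 to 64.6 CPM (-3.01 ± 0.20), Zfp109 from 27.3 to 55.2 CPM to 3.38 to 10.0 CPM (-2.84 ± 0.18) and the axonemal dynein gene Dnah7c from 68.9 to 119 CPM to 16.8 to 33.2 CPM (-1.91 ± 0.12). For Knl1, Zfp616, Zfp109 and Dnah7c in turn, the change in Exosc10 cKO against control was -0.02, -0.24, 1.00 and -0.04, and each interaction passed the test.

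Some genes with extreme interaction terms differed in direction between the comparisons. Exoc2, an exocyst subunit gene, was at 36.3 to 49.2 CPM in control, 4.98 to 13.8 CPM in Exosc10 cKO, 6.43 to 21.1 CPM in Dis3 cKO and 34.3 to 55.4 CPM in dcKO (interaction 4.15, adjusted p = 2.2e-13). Tmem175, a lysosomal potassium channel gene, was at 1.61 ± 0.889 CPM in control, 49.2 ± 20.4 in Exosc10 cKO, 53.4 ± 6.93 in Dis3 cKO and 18.1 ± 18.3 CPM in dcKO (SD, n = 8; interaction -6.49, adjusted p = 2.6e-07). Its dcKO value was split by title tag, with means of 1.2 CPM in tag 1 and 35.1 CPM in tag 2, and fold changes of -5.56 and -0.51 in fits of each tag; dcKO against Dis3 cKO (-1.56, adjusted p = 0.013) was not called with ERCC scaling (-1.20, adjusted p = 0.092). Myo15b was at 1.92, 8.68, 18.1 and 1.79 CPM in the same order of groups (-5.50, adjusted p = 5.3e-06). The Exosc10 cKO value of Myo15b was split by tag as well, at 16.6 CPM in tag 1 and 0.739 CPM in tag 2. Exoc2, Tmem175 and Myo15b each overlap another RefSeq gene, and without known strand their reads cannot be told apart.

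**Figure D4:**
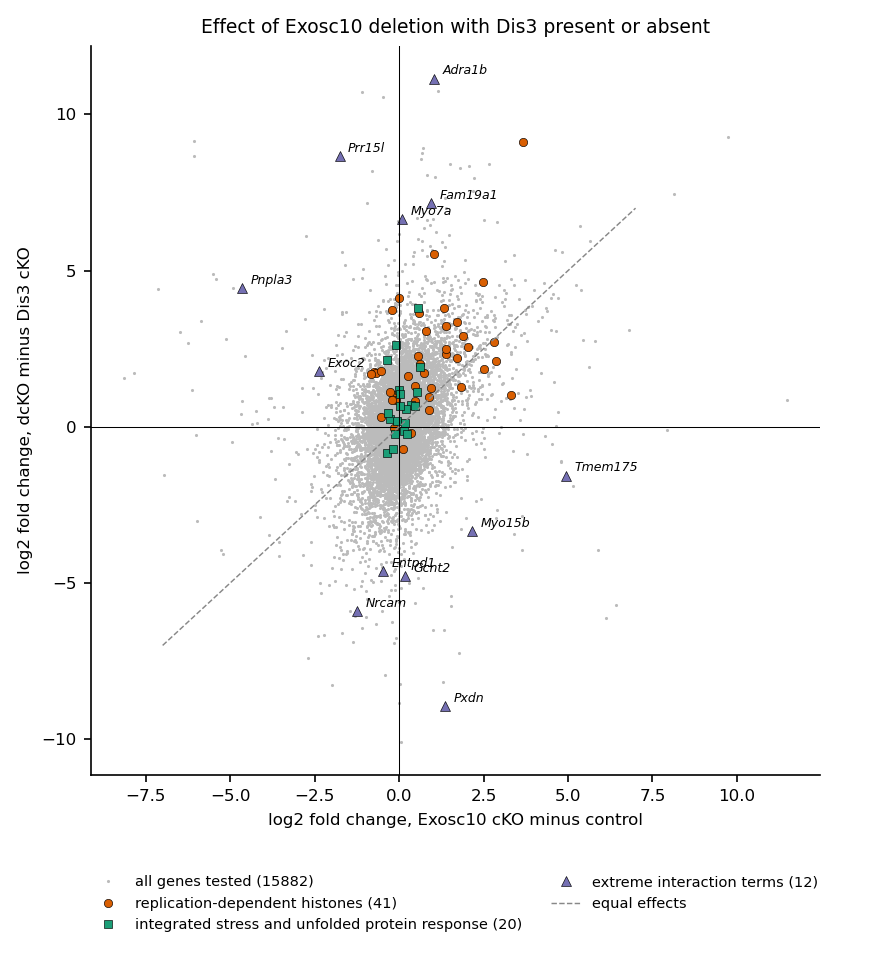
Log2 fold change of each tested gene for Exosc10 cKO minus control (x axis) and dcKO minus Dis3 cKO (y axis); grey points are all 15882 genes, coloured symbols the histone list, the stress list and the 12 named genes with extreme interaction terms, and the dashed line marks equal effects. Histone genes lie mostly above 0 on the y axis, and the cloud is taller than it is wide.

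Exosome genes were called at shares near those of all genes. Of 10 tested core genes, 2 were higher and 2 lower (20% each, against 26% and 25.5% over all genes; 2 and 0 with ERCC scaling). These were C1d, a nuclear cofactor gene (8.83 to 19.5 CPM as group means, 1.14 ± 0.30, adjusted p = 0.0021), Exosc2 (0.63 ± 0.23), Exosc8 (-0.30 ± 0.11) and the cofactor gene Mphosph6 (-0.32 ± 0.08), and neither fall passed with ERCC scaling. For the cytoplasmic paralogues Dis3l and Dis3l2 the values were -0.01 ± 0.11 and -0.02 ± 0.16, and for the core genes Exosc1, Exosc3, Exosc4, Exosc5, Exosc7 and Exosc9 they lay between -0.07 and 0.18. Of 14 adaptor genes, 4 were higher and 4 lower (28.6% each; 4 and 2 with ERCC scaling), and 4 did not overlap between the groups, against 14.5% of all genes. Ncbp1, the large subunit of the nuclear cap-binding complex, went from a mean of 15.5 to 37.8 CPM (1.28 ± 0.21, adjusted p = 7.4e-06) and Srrt (ARS2) from 59.7 to 110 CPM (0.88 ± 0.10). Mtrex, the helicase, was at 87.6 to 112 CPM in Dis3 cKO and 44.2 to 69.7 CPM in dcKO without overlap (-0.88 ± 0.09, adjusted p = 1e-09). The others called were Zfc3h1 (0.63), Pabpn1 (0.56), the NEXT zinc-knuckle gene Zcchc8 (-0.55), the noncanonical poly(A) polymerase gene Tent4b (-0.81) and Ncbp2 (-0.27), of which Zcchc8 and Ncbp2 did not pass with ERCC scaling. Rbm7, Zc3h18, Tent4a, Ncbp3, Zc3h3 and Zcchc7 did not pass the main test, with values between -0.30 and 0.02.

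Lists of the transcription machinery held calls in both directions, as did all genes (26% higher and 25.5% lower). Of 36 tested Pol II subunit and elongation genes, 9 were higher (25%) and 14 lower (38.9%; 11 and 0 with ERCC scaling). Hexim1, the inhibitor that holds the elongation kinase in the 7SK complex, rose from a median of 0.81 CPM (0.0752 to 2.91) to 9.1 CPM (2.01 to 26.4; 3.24 ± 0.58, adjusted p = 2.2e-05), and was not called in title tag 2 alone (adjusted p = 0.057). Cdk9, that kinase, had medians of 13.1 and 43.1 CPM (1.67 ± 0.23) and Nelfb, a subunit of the pausing factor NELF, 10.3 and 32.7 CPM (1.38 ± 0.24). In the list of 3′ end cleavage, termination and Integrator genes, 13 of 34 were higher and 10 lower (12 and 0 with ERCC scaling), led by the cleavage factor genes Clp1 (2.25 ± 0.33), Cstf3 (1.70 ± 0.18) and Cpsf7 (1.17 ± 0.18). Of 42 splicing genes, 8 were higher (19%) and 11 lower (26.2%; 10 and 0 with ERCC scaling), with U2af2 at 1.04 ± 0.11, Prpf4 at 0.99 ± 0.20 and Sf3b2 at -0.78 ± 0.11 (not called with ERCC scaling, adjusted p = 0.055). Of 19 Pol I and III subunit genes, 7 were higher and 4 lower (7 and 2 with ERCC scaling), with Polr1a at -1.52 ± 0.25 and Polr3f at -1.37 ± 0.12. Among 44 ribosome biogenesis genes, 11 were higher and 18 lower (11 and 4 with ERCC scaling).

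Chromatin regulators were tested in 4 lists, whose counts are to be read against 26% higher and 25.5% lower over all genes. In the list of Polycomb repressive complex 2 genes and H3K27 demethylases, 1 of 15 was higher (6.67%) and 7 were lower (46.7%; 1 and 2 with ERCC scaling). Suz12 fell from a median of 798 to 446 CPM (644 to 1108 against 329 to 580; -0.87 ± 0.11, adjusted p = 1.3e-07) and the methyltransferase gene Ezh2 from 508 to 289 CPM (-0.84 ± 0.12, adjusted p = 6.2e-07), both without overlap and both still called with ERCC scaling. Phf19, an accessory subunit, was the member that rose (0.84 ± 0.23). Of 15 genes of DNA methylation and imprint protection, 4 were higher and 3 lower (26.7% and 20%; 4 and 0 with ERCC scaling): Tet2, a 5-methylcytosine dioxygenase, ranged from 20.6 to 32.2 CPM and from 57.1 to 148 CPM (1.85 ± 0.15, adjusted p = 1.4e-11), Uhrf2 rose by 1.67 ± 0.33 and the heterochromatin corepressor gene Trim28 by 0.70 ± 0.11. Of 18 genes of H3K4 and H3K36 methylation, 8 were higher and 5 lower (7 and 1 with ERCC scaling), led by Kdm5a (17.8 to 37.9 against 52.3 to 186 CPM, adjusted p = 1.2e-07), Kmt2a (1.94 ± 0.69) and Kdm5b (1.34 ± 0.33). Genes named Zfp, many of which encode repressors of transposons, had 125 higher and 65 lower of 329 (125 and 21 with ERCC scaling), with a median of 0.27. Named members with few counts in Dis3 cKO were Zfp125 (0.0716 to 2.51 CPM), Zfp871 (2.97 to 78.0 CPM) and Zfp324 (0.182 to 2.24 CPM), as group means.

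Oocyte lists held calls in both directions, to be read against 26% higher and 25.5% lower over all genes. Of the 12 defining markers, 7 were higher (58.3%) and 3 lower (25%; 7 and 0 with ERCC scaling), with a median of 0.45. Of 14 zona and secreted-factor genes, 4 were higher (28.6%) and 8 lower (57.1%; 4 and 2 with ERCC scaling). The sperm-binding zona pellucida genes Zp3 (789 to 1441 CPM as group means, 0.87 ± 0.17, adjusted p = 9.7e-05) and Zp2 (1243 to 2193 CPM, 0.82 ± 0.16) rose, while the growth factor gene Fgf8 fell from a median of 62.3 to 25.3 CPM (-1.23 ± 0.22) and Oosp3 by 0.92 ± 0.15. Oocyte transcription factors had 2 higher (15.4%) and 8 lower (61.5%) of 13 (2 and 1 with ERCC scaling), with Obox2 at 316 to 620 CPM in Dis3 cKO and 172 to 293 CPM in dcKO (-1.03 ± 0.11, adjusted p = 4.2e-09), Gata4 at -0.80 ± 0.28 and Foxo3, which holds primordial follicles dormant, at -0.62 ± 0.14. In the maternal-effect list, 5 of 13 were higher (38.5%) and 4 lower (30.8%; 5 and 3 with ERCC scaling), with Padi6 of the cytoplasmic lattices at 0.94 ± 0.18, Nlrp2 at -1.10 ± 0.17 and Nlrp4f at -0.87 ± 0.11. Meiotic kinases, cyclins and their partners had 4 higher and 11 lower of 21 (5 and 3 with ERCC scaling): the M-phase cyclin gene Ccnb3 fell from a median of 9.77 CPM (3.27 to 15.3) to 0.717 CPM (0.0709 to 2.54; -3.54 ± 0.42, adjusted p = 2.4e-08), Cnot7 of the deadenylase complex fell by 0.83 ± 0.14, and Wee1, the inhibitory kinase of CDK1, rose by 1.05 ± 0.19. Of 10 genes that hold meiotic arrest through cAMP, 2 were higher and 5 lower (2 and 1 with ERCC scaling), with the stimulatory G protein gene Gnas at 1.07 ± 0.13, the protein kinase A subunit gene Prkar2b at -1.57 ± 0.25 and the receptor gene Gpr12 at -1.48 ± 0.46. Among the oocyte genes with values here, the falls of Gata4, Foxo3 and Gpr12 were not called with ERCC scaling (adjusted p of 0.24, 0.24 and 0.071).

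**Figure D5:**
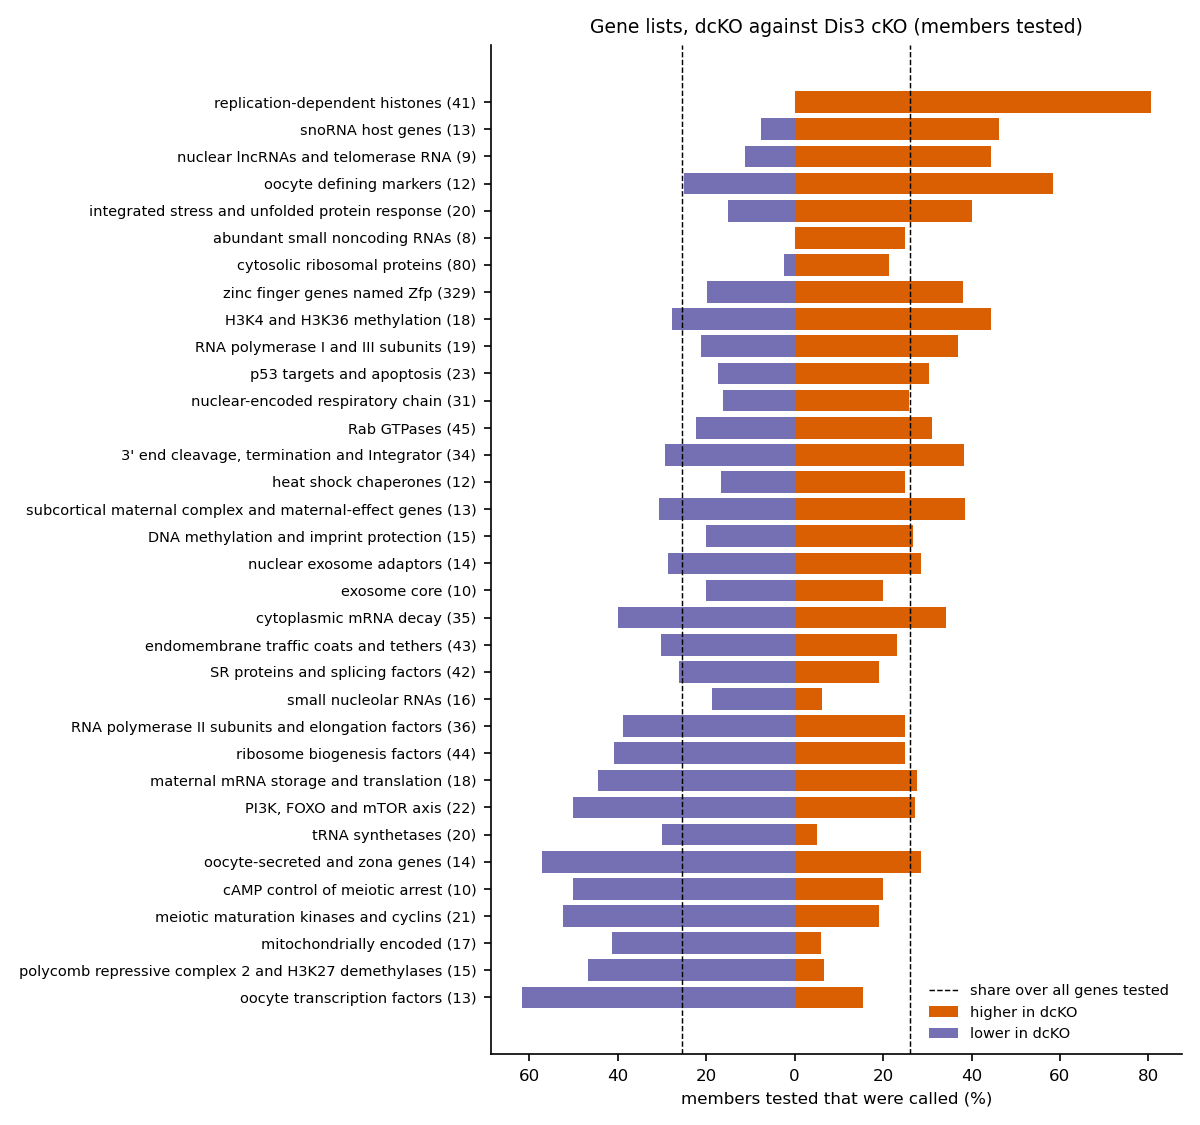
Percentage of tested members of each gene list called higher (right) or lower (left) in dcKO against Dis3 cKO, with the number of members tested in parentheses; dashed lines mark 26% and 25.5%, the shares over all genes tested. Replication-dependent histones reach furthest to the right, and oocyte transcription factors furthest to the left.

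Lists of growth signalling, decay and protein synthesis had members called in both directions, where all genes had 26% higher and 25.5% lower. In the PI3K, FOXO and mTOR list 6 of 22 were higher and 11 lower (6 and 1 with ERCC scaling), with the regulatory subunit gene Pik3r1 at -1.08 ± 0.19 and Tsc2, an inhibitor of mTOR signalling, at 0.87 ± 0.15. Cytoplasmic decay genes had 12 higher and 14 lower of 35 (12 and 5 with ERCC scaling). Upf3b of nonsense-mediated decay was at 34.5 to 51.2 CPM in Dis3 cKO and 4.93 to 16.8 CPM in dcKO (-1.98 ± 0.16, adjusted p = 8.6e-12), while Smg5 rose by 1.69 ± 0.21 and the terminal uridylyltransferase gene Tut4 by 3.03 ± 0.64. Among 23 tested p53 target and apoptosis genes, 7 were higher and 4 lower (7 and 1 with ERCC scaling), led by Ccng1 (10.7 to 32.3 CPM as medians, 1.72 ± 0.25), the anti-apoptotic Bcl2 (1.64 ± 0.58) and the exonuclease gene Aen (1.35 ± 0.28). Cytosolic ribosomal protein genes had 17 higher and 2 lower of 80 (25 and 0 with ERCC scaling), with a median of 0.19. In title tag 1 the list had 14 higher and a median of 0.42, in tag 2 it had 2 higher and a median of -0.04. Their summed share rose from 0.101 ± 0.0101% of counts in Dis3 cKO oocytes to 0.124 ± 0.0189% in dcKO (exact permutation test, p = 0.012, adjusted 0.022). Rpl12 (1.81 ± 0.67), the autosomal copy Rpl10l (1.64 ± 0.42) and Rpl10 (1.28 ± 0.29) led that list. Heat shock chaperone genes had 3 higher and 2 lower of 12 (5 and 0 with ERCC scaling) and Rab GTPase genes 14 and 10 of 45 (15 and 5). Of 20 aminoacyl-tRNA synthetase genes, 1 was higher and 6 were lower, a balance that turned to 3 and 1 with ERCC scaling. Respiratory chain genes had 8 and 5 of 31 (10 and 0 with ERCC scaling).

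Long noncoding RNAs had a share of higher calls near the 26% of all genes. Of 1012 lncRNA genes tested, 254 were higher (25.1%) and 192 lower (19%; 270 and 108 with ERCC scaling), with a median log2 fold change of 0.25, close to the 0.24 of Exosc10 cKO against control. Their summed share of gene counts was lower, at 1.11 ± 0.0416% in dcKO and 1.19 ± 0.0257% in Dis3 cKO, below the Dis3 cKO mean in 8 of 8 libraries (exact permutation p = 0.00062, adjusted 0.0014). The largest rises under the rule were in Gm30198, with no count in Dis3 cKO and 9.22 to 18.3 CPM in dcKO (at least 438-fold higher, but at 22.9 CPM in control), 9530018F02Rik (5.30 ± 0.59), Gm36839 (4.55 ± 0.58) and 2610017A05Rik (3.51 ± 0.35). The last 3, 9530018F02Rik, Gm36839 and 2610017A05Rik, were at 0.0787 to 0.567 CPM in control, at 0.399 to 3.41 CPM in Exosc10 cKO, at 0.327 to 2.04 CPM in Dis3 cKO and at 10.4 to 23.6 CPM in dcKO, as group means, and each overlaps a protein-coding gene (Fut8, Prpf4b and Ipo8), whose reads cannot be separated without strand. The largest falls were in Gm17767 (-3.62 ± 0.38), Gm12130 (-3.21 ± 0.35), Gm33819 (-2.89 ± 0.38) and 8430426J06Rik (-2.46 ± 0.22).

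Small RNA genes gave mixed directions. Other small noncoding RNAs, a class that holds Y, RNase P, RNase MRP and microRNA genes, took 0.00817 ± 0.00128% of gene counts in dcKO and 0.00409 ± 0.000835% in Dis3 cKO, and the groups differed in 8 of 8 libraries (exact permutation p = 0.000155, the smallest this design allows, adjusted 0.0007). The share was 0.0067 ± 0.00175% in Exosc10 cKO and 0.00363 ± 0.00054% in control. Small nuclear RNAs rose from a mean of 0.00168 to 0.00222% (exact permutation p = 0.021, adjusted 0.031). Their ranges overlapped, at 0.00126 to 0.00201% in Dis3 cKO and 0.0017 to 0.00364% in dcKO. Of 8 tested genes of this class, 1 was called higher (12.5%, against 26% over all genes) and 0 lower. For small nucleolar RNAs the means were 0.0131% in Dis3 cKO and 0.0116% in dcKO (p = 0.088, adjusted 0.11), while 1 of their 32 tested genes was higher and 10 were lower by edgeR (1 and 4 with ERCC scaling), against 26% and 25.5% over all genes. Of 13 snoRNA host genes tested, 6 were higher (46.2%) and 1 lower (7.69%; also 6 and 1 with ERCC scaling), and fits by title tag called 5 higher in tag 1 and 1 in tag 2. Log2 fold changes were 3.60 ± 0.79 for Snhg8, 2.34 ± 0.76 for Snhg3 and -2.93 ± 1.05 for Snhg11. The RNase P RNA gene Rpph1 (0.98 ± 0.27) and the Cajal body RNA gene Scarna2 (0.88 ± 0.24) were called higher, Scarna2 in title tag 1 (1.33) and not in tag 2 (0.22, adjusted p = 0.58). Pseudogene reads rose from 0.265 ± 0.0148% to 0.338 ± 0.0183% (p = 0.000155, adjusted 0.0007).

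More genes were seen in dcKO oocytes. At a common depth of 8492102 counts, 15292 ± 140 genes had at least 5 counts in dcKO and 14516 ± 284 in Dis3 cKO (SD, n = 8 each; higher in 8 of 8; exact permutation p = 0.000155, the smallest possible here). Gene counts relative to ERCC counts did not differ detectably. Ribosomal RNA had been removed, so this ratio does not measure total RNA. Gene counts per ERCC count were 1086 ± 232 in dcKO and 1016 ± 222 in Dis3 cKO (log2 difference 0.11, exact permutation p = 0.57), and the difference turned to -0.02 without the Dis3 cKO library 1_4. ERCC counts were 7089 to 19808 per library in these groups, far fewer than the gene counts, and the precision of the ratio was not tested. Mitochondrially encoded RNA took 0.844 ± 0.141% and 0.805 ± 0.281% of counts (p = 0.53). Within that list 1 of 17 tested genes was higher and 7 were lower (1 and 2 with ERCC scaling, 1 and 4 without the Dis3 cKO library 1_4), where all genes had 26% higher and 25.5% lower, the 3 largest falls being in transfer RNA genes, mt-Ts2 (-3.28 ± 1.07), mt-Tl2 (-3.03 ± 0.82) and mt-Tt (-2.13 ± 0.78). The 3 had group means of 2.84 CPM or less, and mt-Tt was not called with ERCC scaling (adjusted p = 0.077).

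The deposited CUT&Tag peak lists of p20 oocytes were read at the starts of protein-coding genes. H3K27me3, the mark laid down by Polycomb repressive complex 2, lay within 1000 bases of the start in at least 2 of 3 control lists for 11.4% of genes called higher (316 of 2761), 14.1% of those called lower (399 of 2833) and 17.3% of those not called (827 of 4773). In dcKO lists the shares were 8.04%, 14.4% and 16%. A peak present in dcKO and not in control lists was found at 2.68% of genes called higher, 5.58% of those called lower and 5.07% of those not called, and a peak in control and not in dcKO lists at 6.08%, 5.26% and 6.35%. The dcKO lists held 244827 to 299716 peaks each and the control lists 151535 to 159895, so shares from lists of the 2 groups are not on 1 footing. Pol II peaks of control oocytes marked 12.3%, 7.62% and 10.1%. A promoter entry existed for 80.5% to 81.3% of the protein-coding genes of each set. The peak lists hold no Dis3 cKO group, so these shares describe the called genes and no change in chromatin between the groups compared.

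Markers of other ovarian cells summed to at most 216 CPM per list in the libraries of the 2 groups. In this paragraph CPM levels use the total gene counts of a library, without the TMM factor used for single genes elsewhere, while fold changes and p-values come from the same model as above. The 19 granulosa and cumulus markers summed to 133 to 216 CPM in dcKO and 115 to 200 CPM in Dis3 cKO, most of it Nr5a2 (means of 130 and 102 CPM), with Foxl2, Amh, Amhr2 and Inha each at a mean of 1.38 CPM or less and Slc38a3 at 0 in both. The highest dcKO library exceeded the highest Dis3 cKO library for several of these markers, among them Inha (8.60 against 1.89 CPM), Gja1 (7.54 against 2.12 CPM), Fshr (11 against 4.64 CPM) and Amhr2 (1.82 against 0.105 CPM). Fshr had means of 4.01 CPM in dcKO and 2.54 CPM in Dis3 cKO, and Kitl of 23.6 and 35.2 CPM. Of 13 tested, 3 were lower (23.1%, against 25.5% of all genes; 2 with ERCC scaling) and none higher by edgeR, with a median log2 fold change of 0.17. The 3 were Has2, the hyaluronan synthase of cumulus expansion (-4.64 ± 0.73), Cyp19a1, the aromatase (19.4 to 4.97 CPM, -2.10 ± 0.30), and Kitl, the ligand of Kit (-0.71 ± 0.17; not called with ERCC scaling, adjusted p = 0.16). Blood and endothelial markers summed to 26.4 to 48.6 CPM in dcKO and 59.9 to 75.4 CPM in Dis3 cKO, nearly all from Pecam1 (means of 38.3 CPM in dcKO and 69.1 CPM in Dis3 cKO; adjusted p = 5.1e-09), with the haemoglobin genes Hba-a1, Hbb-bs and Hbb-bt and Lyz2 at 0. The 9 theca and stroma markers summed to at most 5.96 CPM in any library of the 2 groups. The part of other cells in the results was not tested.

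The change was larger in title tag 1 than in tag 2 for most genes called in both. Fits of 4 against 4 oocytes called 6067 genes in title tag 1 and 4891 in tag 2, and 3597 genes were called in both, 3580 of them in the same direction. Of those 3580, the change was larger in tag 1 for 2756. Over the 13375 genes tested in both, the median absolute log2 change was 0.62 in tag 1 and 0.46 in tag 2. For example, the dcKO means of tags 1 and 2 were 21.7 and 9.18 CPM for Xbp1, 19.7 and 4.52 CPM for Hexim1, and 214 and 90 CPM for Hist1h3c. Of the genes given values above, C1d, Hexim1, Kmt2a, Prpf4, Tsc2, Zp2, Rpl10, Scarna2, Ddit3 and Kitl were called in tag 1 and not in tag 2, and Bcl2 and Phf19 in tag 2 and not in tag 1. Exosc2, Exosc8, Pabpn1, Ncbp2, Gata4, Gpr12 and Creld2, called over all libraries, were called in neither tag alone. Genes that passed the filter on low counts in 1 tag at most were Hist1h2bp, Zfp324, Snhg8 and Herpud1 (called in tag 1), Snhg3 and Rpl12 (tested in tag 1 and not called), mt-Tt and mt-Tl2 (tested in tag 2 and not called), and Snhg11 and mt-Ts2 (tested in neither). Whether the tags differ in their response was not tested.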

How the data were processed

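Single p20 oocytes were sequenced after removal of ribosomal RNA with a kit primed by random hexamers, per the labels' protocols. The authors deposited whole-number read counts per gene and per ERCC RNA, 1 file each per library. The submitters' processing notes name cutadapt 2.5, FastQC 0.11.8, STAR 2.7.2a, SAMtools 1.9, HTSeq 0.9.1, R 3.5.1, DESeq2 1.24.0, SEACR and the build mm10. The annotation release and the use of strand are not given in the sources used here, so overlapping genes (68 of 162 named genes overlap another RefSeq gene) and near-identical copies are uncertain. The deposited CUT&Tag peak lists give the authors' total signal per peak, 1 list per library, used only to filter peaks in one alternative. RefSeq positions are of GRCm38.p6, the assembly that mm10 names. Only protein-coding genes were set against peaks, since 70.4% of all tested genes have a promoter entry.

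Counts of 55487 gene IDs were used as deposited, with 0 rows naming no gene. Of the IDs, 99.4% had a symbol, and genes with a RefSeq biotype held 98.8% of counts. The R package edgeR 4.0.16 (under R 4.3.3) tested genes by its quasi-likelihood method after filterByExpr and TMM scaling, with Benjamini-Hochberg adjustment over 15882 genes and a threshold of 0.05, in 1 fit of all 32 libraries of the 4 p20 groups. Standard errors were derived from F (absolute fold change over the root of F), and CPM beside fold changes use TMM-scaled library sizes. CPM of markers and sums, and the floor of 3 counts over a group of libraries with none, use gene counts. Class shares, counts per ERCC count and genes detected were compared by 2-sided exact permutation tests over 12870 regroupings (SciPy 1.17.1). The fit was tested on simulated data. DESeq2 1.42.0, its size factors, ERCC scaling, no filter, a replicate block, fits by title tag or of 2 groups only, sums per tag and leaving out each library were the alternatives; counts of list members without 1 Dis3 cKO library were added after seeing the data. No 2 libraries of a group agreed within sampling noise. Depth per library limits low genes, and counting error alone is covered by the floors, since reads carry no molecular identifiers in these files.

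Named genes were Exosc10 and Dis3, the 12 highest and 12 lowest qualifying protein-coding genes, the 4 highest and lowest lncRNA genes, the 6 highest and lowest called interaction terms and 5 smallest p-values in each direction among qualifying protein-coding genes, and up to 3 called members per list. The libraries compared, the gene lists and these rules were chosen with earlier results of these data known.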

Additional observations from a re-analysis of the deposited data

Results flagged for a closer look

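Single libraries lay far from the rest of their group of 8 in 14 of 102 groups of values examined. Chance gives about 1 in 20 only for independent, normally distributed values. Some of these groups lay near 0 CPM and several cases share 1 library, so no excess over chance is read from the count. The Dis3 cKO library 1_4 had 547 gene counts per ERCC count (nearest 898), 0.125% of counts from cytosolic ribosomal protein genes (nearest 0.103%), 4.12 CPM of Dis3 (nearest 2.37) and 20.2 CPM of Fam189a1 (nearest 30.8). Other Dis3 cKO libraries were 2_4 for Prr15l (0.438 CPM), 1_1 for Prelid1 (3.49 CPM), 1_2 for Lipt2 (4.75 CPM) and 2_2 for 9530018F02Rik (1.28 CPM), each the highest of a group with low levels. In dcKO, library 1_2 was highest for small nuclear RNAs (0.00364% of counts, nearest 0.0025%) and for Prr15l (38.5 CPM). The residual levels of genes lost in dcKO were highest in library 2_4 for Ppp1r9a (5.63 CPM), 2_1 for Cdk6 (2.68 CPM), and 2_2 for Entpd1 (3.68 CPM) and Gm17767 (11.6 CPM), all of title tag 2.

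By the interaction test, the change from Dis3 cKO to dcKO differed from the change from control to Exosc10 cKO in 4984 genes. The outermost interaction terms that follow are on the log2 scale, among protein-coding genes that met the naming conditions. In one direction they were 10.43 for Prr15l, 10.11 for Adra1b, 9.08 for Pnpla3, 6.54 for Myo7a, 6.2 for Fam19a1 and 4.15 for Exoc2. In the other they were -10.29 for Pxdn, -6.49 for Tmem175, -5.5 for Myo15b, -4.95 for Gcnt2, -4.67 for Nrcam and -4.15 for Entpd1. For Adra1b the term rests on a group with no count and is no bound.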

How the results depend on the processing

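The 8182 calls of dcKO against Dis3 cKO became 5864 with ERCC scaling, 8461 with DESeq2, 9782 without a filter, 6067 in title tag 1 and 4891 in title tag 2, where 8 libraries were fitted, and 7663 to 8331 with 1 library left out. The interaction gave 2155 calls with ERCC scaling and 1307 with counts summed per title tag, which leaves 2 values per group, in place of 4984, and Exosc10 cKO against control gave 364 and 174 in place of 1183. Same-numbered libraries deviated together with correlations of -0.075 to 0.183, and 1 of 8 correlated best with its own number, so the numbers do not pair the oocytes. With the replicate block, 8100 genes were called in place of 8182.

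Gene counts per ERCC count differed by -0.0163 to 0.183 (log2) with 1 library left out, the sign turning without the Dis3 cKO library 1_4. The protein-coding share differed by -0.00408 log2 without the Dis3 cKO library 1_4 (range -0.00408 to -0.00186) and the snoRNA share by -0.22 without dcKO 1_3 or Dis3 cKO 1_2 (range -0.22 to -0.14), values that passed the unadjusted test. Genes lower minus not called under control H3K27me3 peaks differed by -5.62 percentage points with peaks in at least 1 of 3 lists. Genes higher minus not called under dcKO H3K27me3 peaks differed by -9.99 with at least 1 of 3 lists, -4.35 with 3 of 3 and -5.62 with peaks above the median signal. Under Pol II peaks the main value was 2.22, with 4.43 for at least 1 of 3 lists, 1.12 for 3 of 3 and 1.47 for a window of 500 bases. For genes lower minus not called, the Pol II value was -2.43 in the main setting and -1.22 with 3 of 3. Without Dis3 cKO 1_4, a setting chosen after seeing the data, 1 exosome ribonuclease gene, Dis3, was higher in place of 0, 2 nuclear lncRNAs were lower in place of 1, 1 ribosomal protein gene was lower in place of 2 and 4 mitochondrial genes were lower in place of 7.

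Among genes named by the rule, none past the threshold changed sign under the alternatives run; Creld2, named after its values were seen, did with ERCC scaling. Sign changes were in exosome genes that had not passed. With ERCC scaling they were 0.27 for Dis3l, 0.26 for Dis3l2, 0.20 for Zc3h18, 0.19 for Tent4a, 0.23 for Exosc1 and Exosc5, 0.10 for Ncbp3 and 0.0158 for Zc3h3. Dis3l was 0.00845 with DESeq2 and with its size factors and 0.0113 without a filter, and Dis3l2 was 0.00554, 0.00696 and 0.00898, and 0.00609 with the replicate block. In title tag 1, Exosc9 was -0.44 and Ncbp3 0.0935, and in title tag 2, Rbm7 was -0.18, Zc3h18 0.0323 and Exosc5 0.13. With 1 library left out, Rbm7 ranged from -0.0563 to 0.0585, Dis3l from -0.0821 to 0.0475, Dis3l2 from -0.0928 to 0.0722, Zc3h18 from -0.0797 to 0.00839, Exosc1 from -0.13 to 0.0494 and Exosc5 from -0.14 to 0.0171. The causes were not tested. Few counts stand behind low genes such as Herpud1 and the mitochondrial transfer RNA genes.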
